A study of Harpegnathos saltator with 19 samples.

Results

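Levels of 5 genes of transcriptional repression, Sidpn, hry, emc, gro and klu, were followed across 19 RNA-seq libraries from the central brain of Harpegnathos saltator, an ant whose workers can become reproductives. The 5 genes were picked by their RefSeq symbols out of 14001 genes in the table, as repressors downstream of or beside Notch that the hormones moved in opposite directions. The choice therefore used the levels of these genes in the 3 groups, and their hormone differences are given below as a description, without tests. All 5 passed the filter on low values, an FPKM of at least 1 in at least 5 libraries, which 9381 genes passed in all. FPKM, the unit deposited by the authors, is the number of fragments scaled to gene length and library size. Each library came from 1 worker. By injection into the head, 7 ants were given 20E (20-hydroxyecdysone, the hormone that drives moults) and 7 ants JH3 (juvenile hormone III), each at 100 ng, and 5 ants formed the DMSO control. Central brains were taken after 10 h. The labels of all 3 groups, DMSO included, give 5% glucose, named as the solvent of the hormones. They give neither age nor colony, and no untreated ants are among the samples. The run labels 190514 and 200212 divide each group, with 3 libraries per group in the first, and 2 of DMSO, 4 of 20E and 4 of JH3 in the second.

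In flies, Notch on the surface of a cell is cut when it binds a ligand such as Delta on a neighbour, and its inner part then turns on genes of repressors with a basic helix-loop-helix (bHLH) domain. Hairy and Deadpan, of the same family, bind DNA and recruit the co-repressor Groucho, while Extramacrochaetae lacks the basic region and holds bHLH activators such as Daughterless away from DNA. Klumpfuss is a zinc finger repressor that acts beside Deadpan in fly neural stem cells. In the mosquito Aedes aegypti, Hairy and Groucho carry out gene repression downstream of the juvenile hormone receptor. Functions given here for ant genes are those of the fly genes with the same symbol.

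The libraries held 13.04 to 25.52 M reads on genes (median 18.27 M). Markers of neural tissue were present: none of the 15 measured neuron markers and none of the 10 measured glial markers had a mean below 1 FPKM, with brp at 23.9 to 54.3 FPKM and repo at 21.8 to 46.6 FPKM. The muscle marker Mhc ran from 2.39 to 26.3 FPKM and the photoreceptor marker Arr2 from 6.7 to 361 FPKM. The summed level of the glial markers was 791 to 1090 FPKM in DMSO, 546 to 948 in 20E and 456 to 892 in JH3. Most of that sum was Gs2 (mean 732, 558 and 501 FPKM), and the mean log2 level of the 10 glial markers was 4.13 to 4.44 in DMSO, 4.11 to 4.66 in 20E and 3.54 to 4.09 in JH3. Of the 10, Gli and axo rose under 20E (log2 0.57 and 0.59, limma adjusted p = 0.0237 and 0.0426) and moody and Gat-a fell under JH3 (-0.63 and -0.62, adjusted p = 0.0222 and 0.0398). Between the hormones 4 of the 10 were higher in 20E, 40% against 5.34% of all genes tested. They were moody (0.68), Gli (0.45), drpr (0.55) and axo (1.18), with limma adjusted p = 0.00103, 0.0364, 0.00438 and 1.28e-05. The summed level of 8 muscle markers was 91.8 to 165, 85.7 to 182 and 163 to 345 FPKM, of which Mef2 made up a mean of 79.7, 71.7 and 143 FPKM. Mef2 was the 1 muscle marker of 7 tested that rose under JH3 (0.75, adjusted p = 0.00509), and the medians of Mhc were 5.67, 5.95 and 3.68 FPKM. The part of these markers in the results below was not tested. In bulk tissue, fewer cells of a type and less RNA per cell cannot be told apart. Replicate 6 of 20E stood apart, with the highest mean log2 level of neuron markers (6.68, against 5.70 to 6.35 in the other 18 libraries), and replicate 1 of JH3 had the lowest mean log2 level of glial markers (3.54, against 3.86 to 4.66). The hormone differences of the 5 genes, the ratios and the calls of list genes are also given without these 2 libraries.

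Sidpn (LOC105187987) is named for its similarity to deadpan, the fly bHLH repressor gene of neural stem cells. Its level was 21.7, 28.4, 17.3, 21.2 and 34.2 FPKM in the 5 DMSO brains. Under 20E it ran from 21.4 to 38.3 FPKM with a median of 31 FPKM, and under JH3 from 48.4 to 116 FPKM with a median of 85.2 FPKM. Every JH3 brain thus lay above every DMSO and every 20E brain, while the 20E and DMSO ranges overlapped. The share of all genes with ranges apart in this way is not given here. As these levels chose the genes, nothing is read from separate ranges here or below. The log2 fold change was 1.68 ± 0.15 (SE) for JH3 with DMSO, a 3.19-fold higher level, and 0.18 ± 0.15 for 20E with DMSO. Between the hormones it was -1.50 ± 0.13, so the 20E level was 2.82-fold lower than the JH3 level. Within the first and second run labels the JH3 difference was 1.59 and 1.79, and without replicate 6 of 20E and replicate 1 of JH3 it was 1.64, with 0.17 for 20E with DMSO and -1.47 between the hormones. The larger log2 differences of Sidpn were thus those that involve JH3, as a description.

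The gene hry (LOC105188885), the ant counterpart of fly hairy, encodes the founding Groucho-binding bHLH repressor. Its level was 13.1, 13.6, 11, 14 and 15.5 FPKM in DMSO. In the 20E brains it ran from 11.4 to 17.9 FPKM with a median of 13 FPKM, and in the JH3 brains from 19.3 to 26.7 FPKM with a median of 23.7 FPKM. As for Sidpn, the JH3 range was separate from both others, and the 20E and DMSO ranges overlapped. The log2 fold change was 0.75 ± 0.11 for JH3 with DMSO (0.77 and 0.69 within the runs) and 0.03 ± 0.11 for 20E with DMSO (0.16 and -0.10 within the runs). The 20E level was 1.64-fold lower than the JH3 level. Leaving out 20E replicate 6 and JH3 replicate 1 gave 0.71 for JH3 with DMSO, -0.02 for 20E with DMSO and -0.73 between the hormones.

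The third gene of the HLH class, emc (LOC105184380), encodes the HLH protein that sequesters bHLH activators. It had the highest level of the 5 genes, at 77.3, 92.8, 83, 80.4 and 81.2 FPKM in DMSO. Its 20E values ran from 44.7 to 85 FPKM with a median of 57.2 FPKM, and its JH3 values from 96.6 to 137 FPKM with a median of 114 FPKM. Of the 7 20E brains 6 lay below the lowest DMSO brain, the exception being replicate 6, and the 7 JH3 brains lay above the highest DMSO brain. The log2 fold changes had opposite signs and like sizes, -0.47 ± 0.12 for 20E with DMSO and 0.48 ± 0.12 for JH3 with DMSO. Within the runs they were -0.46 and -0.48 for 20E, and 0.51 and 0.44 for JH3. Without replicate 6 of 20E and replicate 1 of JH3 the 20E value was -0.56, the JH3 value 0.48 and the difference between the hormones -1.04. The direct difference between the hormones was a 1.93-fold lower level in 20E.

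The gene gro (LOC105181682) encodes Groucho, the co-repressor that Hairy-type proteins recruit. Its level was 7.9, 9.75, 7.66, 8.13 and 9.71 FPKM in DMSO. It ran from 9.2 to 16.1 FPKM with a median of 12.3 FPKM in 20E, and from 8.39 to 12.5 FPKM with a median of 10.5 FPKM in JH3. In each hormone group 6 of 7 brains lay above the highest DMSO brain, and the 2 hormone groups overlapped. The log2 fold change was 0.47 ± 0.12 for 20E with DMSO and 0.32 ± 0.12 for JH3 with DMSO, so gro did not go in opposite directions. Both were smaller in the second run label, 0.62 and 0.29 for 20E and 0.47 and 0.13 for JH3. Between the hormones it was 0.15 ± 0.11, and 0.08 without replicate 6 of 20E and replicate 1 of JH3, with 0.39 for 20E and 0.31 for JH3 against DMSO.

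The gene klu (LOC105186404) encodes the zinc finger repressor Klumpfuss. Its level was 5.26, 5.12, 4.14, 5.65 and 9.23 FPKM in DMSO. It ran from 2.6 to 4.6 FPKM with a median of 3.75 FPKM in 20E, and from 9.61 to 21.6 FPKM with a median of 16.8 FPKM in JH3. The lowest JH3 brain lay above the highest DMSO brain, which was DMSO replicate 5. Of the 20E brains 4 lay below the lowest DMSO brain, and all 7 lay below the DMSO mean. The log2 fold changes were -0.67 ± 0.13 for 20E with DMSO (-0.63 and -0.71 within the runs) and 1.27 ± 0.13 for JH3 with DMSO (1.24 and 1.30 within the runs). The difference between the hormones was -1.95 ± 0.11, a 3.86-fold lower level in 20E. It was the widest among the 5 genes. With 20E replicate 6 and JH3 replicate 1 left out, the values of klu were -0.69, 1.28 and -1.97.

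**Figure D1:**
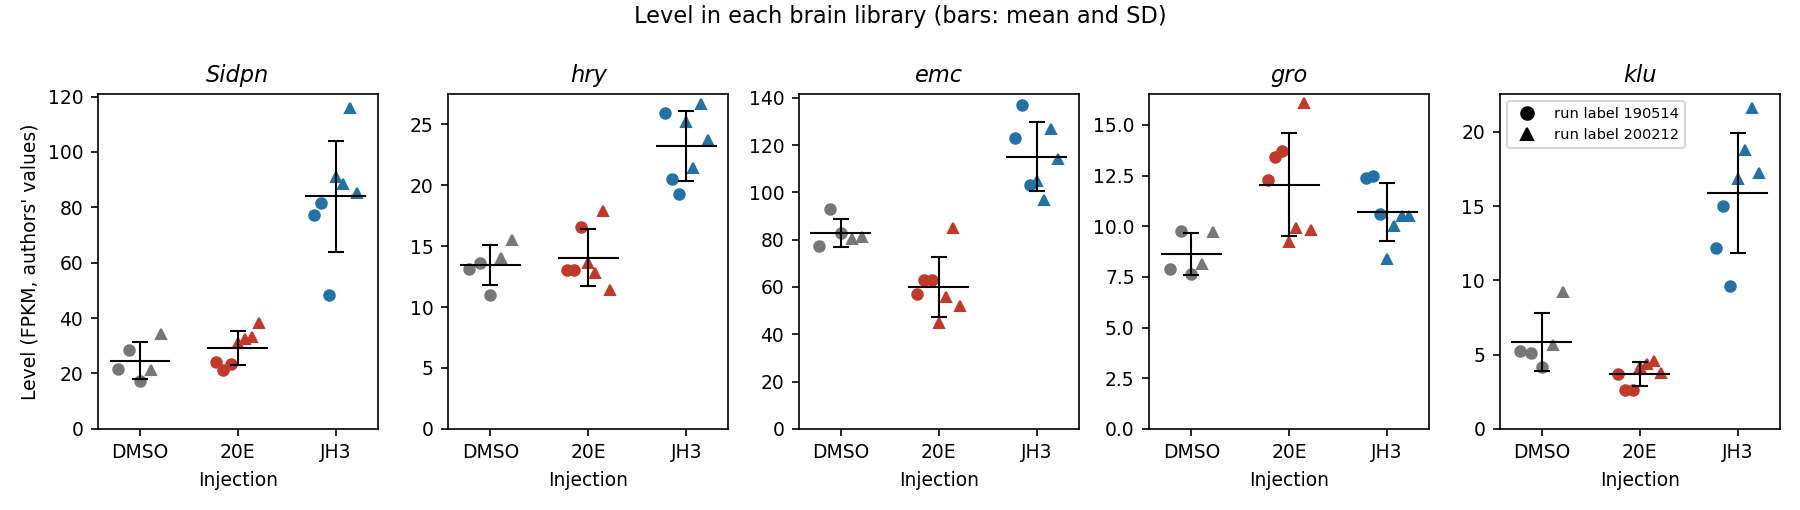
FPKM of each gene (vertical axis, from 0) in every brain library by injection, with the group mean and SD as bars, circles for run label 190514 and triangles for 200212. The JH3 brains of Sidpn, hry, emc and klu lie above the DMSO brains, and those of gro overlap with them.

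Against DMSO the 5 genes thus showed 3 patterns. Sidpn and hry were higher in JH3 with 20E near DMSO, emc and klu were higher in JH3 and lower in 20E, and gro was higher in both. Counted by the threshold applied to all genes (limma, Benjamini-Hochberg adjusted p under 0.05), 3 of the 5 were past it for 20E with DMSO (gro, emc, klu), against 3.34% of all genes tested. Of all genes 2.59% were past it as higher and 0.746% as lower. For JH3 with DMSO 3 were past it (Sidpn, hry, klu, all higher) against 0.927% of all genes, or 0.629% higher and 0.298% lower. For 20E with JH3 4 were past it (all but gro, all lower) against 5.34%, or 3.9% higher and 1.44% lower. These contrasts chose the genes, so nothing is read from the counts. The signs against DMSO were opposite for emc (-0.47 ± 0.12 in 20E and 0.48 ± 0.12 in JH3) and klu (-0.67 ± 0.13 and 1.27 ± 0.13). The comparisons with DMSO share the 5 control brains.

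**Figure D2:**
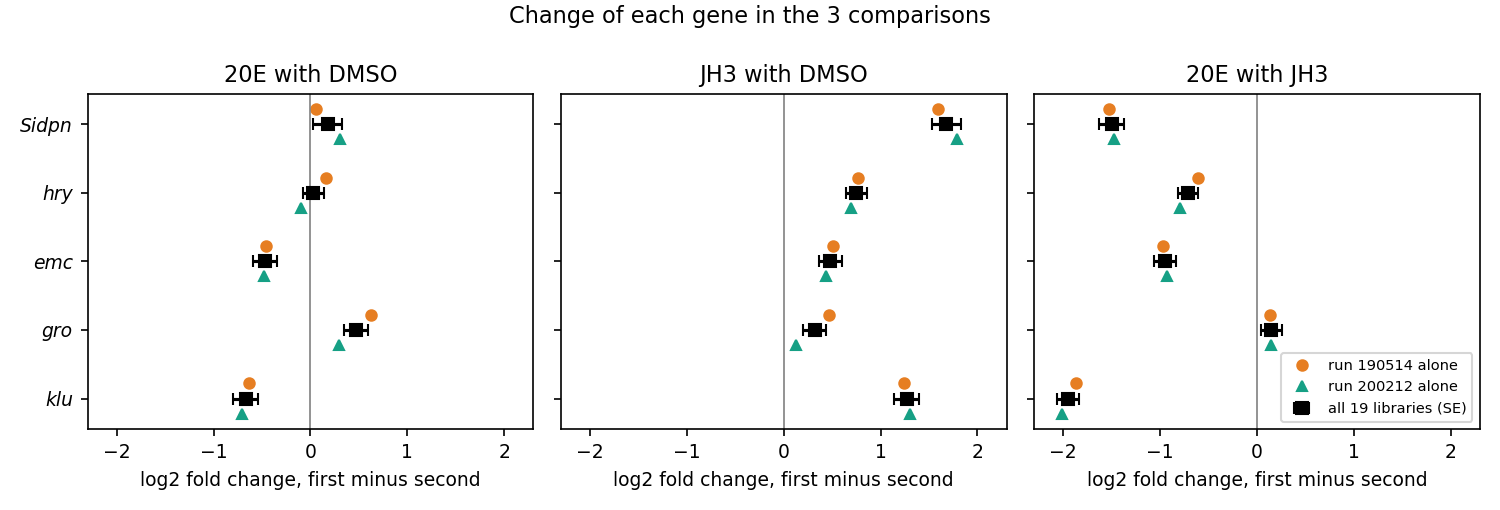
Log2 fold change of each gene (horizontal axis, first group minus second, on log2(FPKM + 0.5)) in the 3 comparisons, as squares with SE over the 19 libraries, circles for run label 190514 alone and triangles for 200212 alone. Values of emc and klu lie on opposite sides of 0 in the first 2 panels, and those of gro on the same side.

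FPKM is scaled to gene length, so levels can be set side by side between genes. In DMSO the order of mean levels was emc (83 ± 5.86 FPKM, SD, n = 5), Sidpn (24.6 ± 6.72), hry (13.5 ± 1.64), gro (8.63 ± 1.02) and klu (5.88 ± 1.96). This order of the 5 genes held in each of the 5 DMSO brains. In 20E the means were 60.1 ± 12.7 (SD, n = 7), 29.2 ± 6.17, 14 ± 2.32, 12 ± 2.53 and 3.69 ± 0.805 FPKM in the same order of genes. There hry and gro were neighbours within their spread, with hry above gro in 6 of 7 brains. In JH3 the means of emc and Sidpn were 115 ± 14.5 and 83.9 ± 20 FPKM (n = 7), and those of hry, klu and gro were 23.2 ± 2.87, 15.9 ± 4.04 and 10.7 ± 1.42 FPKM. Here klu changed places with gro, which lay above klu in only 2 of 7 JH3 brains. Among the 9381 genes tested, klu stood at the 26.7th percentile of mean level in 20E, at the 41.5th in DMSO and at the 75.4th in JH3. The most variable of the 15 gene and group pairs was klu in DMSO (SD of 33.3% of the mean) and the least was emc in DMSO (7.07%).

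Because Hairy-type repressors act with Groucho, and Extramacrochaetae binds Daughterless, each level was also taken relative to its partner within a library. The gene da (LOC105185406), which encodes Daughterless, was at 11.4 ± 1.22 FPKM in DMSO, 11.3 ± 1.19 in 20E and 13.7 ± 1.94 in JH3, with no comparison past the threshold (limma adjusted p = 0.999 for 20E with DMSO, 0.527 for JH3 with DMSO and 0.147 between the hormones). The ratio of emc to da was 6.15 to 8.46 in DMSO, 3.8 to 6.24 in 20E and 7.43 to 9.7 in JH3. The hormone groups did not overlap in this ratio, and DMSO overlapped with each of them. The overlap with 20E rested on 20E replicate 6 (6.24). Without it the 20E range ended at 6.07, below the lowest DMSO brain. The ratio of Sidpn to gro was 2.26 to 3.53 in DMSO, 1.6 to 3.91 in 20E and 4.56 to 11.1 in JH3, where it lay above all other brains. For hry to gro the ranges were 1.4 to 1.73 in DMSO, 0.97 to 1.48 in 20E and 1.64 to 3.01 in JH3. The ratio of klu to Sidpn was 0.18 to 0.27 in DMSO, 0.0981 to 0.152 in 20E and 0.158 to 0.212 in JH3. Its 20E range lay below both others, which overlapped. Of these 12 ranges, leaving out 20E replicate 6 and JH3 replicate 1 moved only the highest ratio of emc to da in 20E (to 6.07) and the lowest ratio of klu to Sidpn in JH3 (to 0.184). These ratios rest on the same levels that chose the genes and are a description. The trend over gene length was not removed from them.

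**Figure D3:**
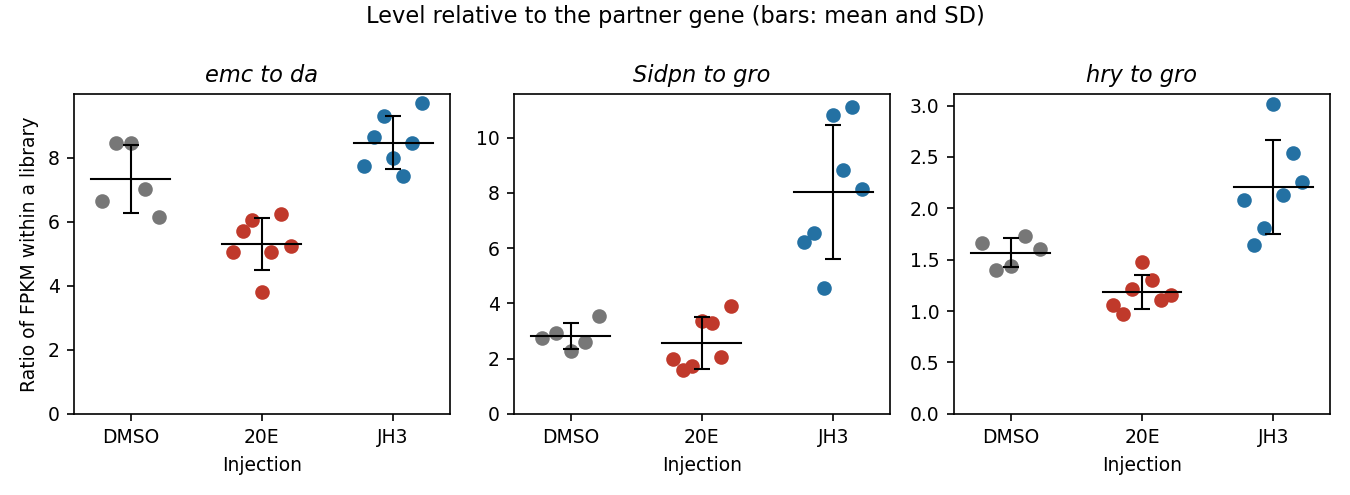
Ratio of FPKM values within each library (vertical axis, from 0) for emc to da, Sidpn to gro and hry to gro by injection, with the group mean and SD as bars. The ratio of Sidpn to gro is at least 4.56 in the JH3 brains and at most 3.91 in the others.

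The run label was not used to choose the genes, and its term in the fit was tested. Sidpn was higher in run label 200212 by log2 0.45 ± 0.12 (limma adjusted p = 0.0035) and klu by 0.53 ± 0.10 (adjusted p = 0.00026). Mean klu levels in the first and second run were 4.84 and 7.44 FPKM in DMSO, 2.97 and 4.23 in 20E, and 12.3 and 18.6 in JH3. No difference passed for hry (0.10 ± 0.09, adjusted p = 0.349), emc (-0.09 ± 0.10, adjusted p = 0.463) or gro (-0.17 ± 0.10, adjusted p = 0.157). Of all genes tested, 50.9% passed for the run label. With a trend over gene length removed from each library the differences of Sidpn (0.17) and klu (0.19) no longer passed (adjusted p = 0.244 and 0.0803), while those of gro (-0.44, adjusted p = 0.000219) and hry (0.30, adjusted p = 0.0334) did. Relative to the median gene the lengths read from the table were 2.51 for Sidpn, 2.45 for gro, 3.64 for klu, 0.766 for hry and 0.771 for emc. No hormone difference of the 5 genes depended on the run label past the threshold (adjusted p = 0.998 for each by limma, unadjusted p from 0.335 to 0.965). With 2 to 4 libraries per group and run, such a dependence could go undetected.

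Within a group and run the single brains also varied together, as described by correlations over the 19 libraries after the group and run means were removed. The closest pairs were emc and gro (Pearson r = 0.87) and Sidpn and klu (r = 0.76), and the other 8 pairs ran from 0.31 to 0.66. Without 20E replicate 6 and JH3 replicate 1 the value was 0.73 for emc and gro, and 0.78 for Sidpn and klu. The libraries share the authors' scaling, and the deviations of gro (r = 0.89) and emc (r = 0.84) followed the ratio of that scaling to total reads, and the mean level of the neuron markers (r = 0.87 for each). For Sidpn and klu these values were 0.53 and 0.60 for the scaling and 0.44 and 0.53 for the neuron markers. With the mean level of the glial markers r was 0.62 for emc, 0.47 for gro, 0.17 for hry, -0.04 for Sidpn and -0.07 for klu. With scaling to total reads the pair values were 0.64 for emc and gro and 0.65 for Sidpn and klu, and the other 8 pairs ran from -0.25 to 0.27. The deviations also followed the slope of each library over gene length, with r = 0.70 for gro, 0.63 for emc, 0.51 for klu, 0.49 for hry and 0.32 for Sidpn. With the gene length trend removed the closest pair was hry and emc (0.77), followed by emc and gro and Sidpn and klu (0.73 each) and hry and gro (0.62). The pairs of klu with hry, emc and gro were then at -0.08, -0.13 and 0.01. The order of the pairs thus changed with the processing.

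**Figure D4:**
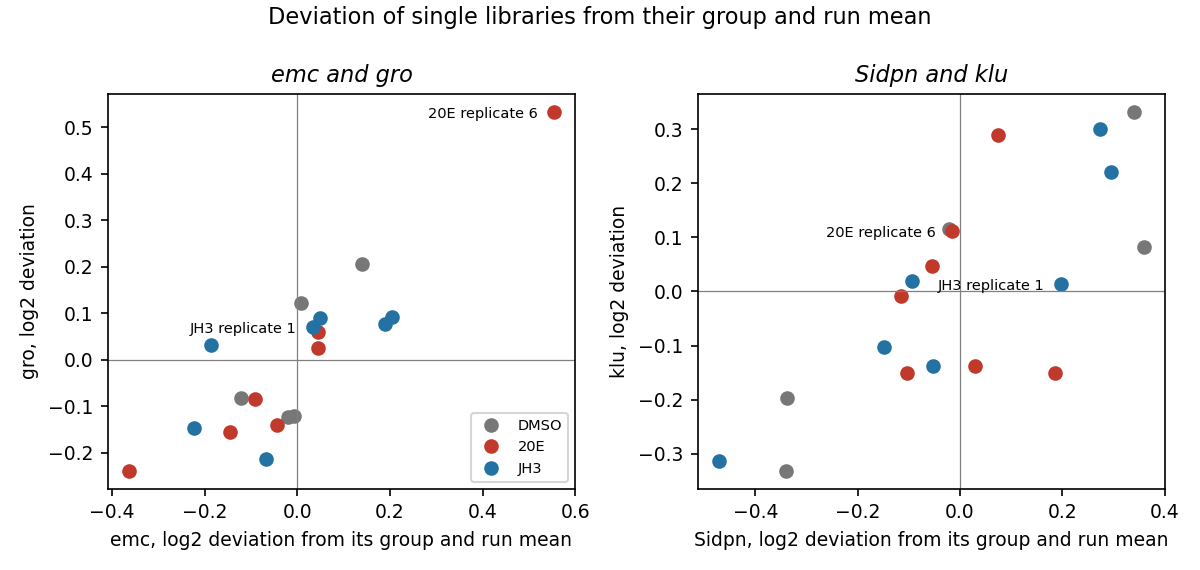
Log2 deviation of each library from its group and run mean, for gro against emc on the left and klu against Sidpn on the right, 1 point per library coloured by injection. The far point at the upper right of the left panel is 20E replicate 6.

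Among all genes with a symbol, those with a level most like each of the 5 were found by Pearson r over the 19 libraries with the run mean removed, and these values include the group differences. For Sidpn they were Delta (0.94), wech (0.93) and cwo (0.93), and for hry they were Delta (0.92), wech (0.91) and Sidpn (0.90). For klu they were Smox (0.98), cwo (0.96) and Mef2 (0.95), and for emc they were trbl (0.91), klu (0.90) and Pax (0.89). The genes most like gro were not among these but were Nhe2, jvl and Tdg, each at 0.91. Lowest were Chsy for Sidpn (-0.83) and klu (-0.90), Mgat1 for hry (-0.71), spri for emc (-0.83) and pll for gro (-0.88). With the group means removed as well, the 3 genes most like Sidpn had 0.61 (Delta), 0.60 (wech) and 0.44 (cwo), and those most like hry had 0.68 (Delta), 0.61 (wech) and 0.39 (Sidpn). Those most like klu had 0.72 (Smox), 0.56 (cwo) and 0.71 (Mef2), and those most like emc had 0.89 (trbl), 0.32 (klu) and 0.39 (Pax). For gro the values were 0.83 (Nhe2), 0.91 (jvl) and 0.81 (Tdg). The lowest genes then had -0.07 and -0.04 (Chsy to Sidpn and klu), -0.14 (Mgat1), 0.12 (spri) and -0.75 (pll). The likeness to gro was thus the least altered by removing the group means. The ratio of the authors' scaling to total reads, which the deviations of gro followed (r = 0.89), was not removed here. Its part in this likeness was not tested.

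The genes around the 5 were taken from 4 lists of Notch signalling, HLH factors, repressors and co-repressors, and neuroblast factors, which hold 77 tested genes besides the 5. For 20E with DMSO 5 rose and 2 fell, 9.09% of these genes against 3.34% of all genes tested. For JH3 with DMSO 6 rose and 1 fell, also 9.09%, against 0.927% of all. For 20E with JH3 5 were higher and 5 lower in 20E, 13% against 5.34%. The median log2 fold changes of the lists together were 0.04, 0.01 and 0.02, against -0.01, 0 and -0.02 over all genes tested. Without 20E replicate 6 and JH3 replicate 1, 2 of the 24 list gene calls were lost, those of N (log2 0.44, adjusted p = 0.109) and CycC (-0.52, adjusted p = 0.0653) between the hormones, by limma. Most of these genes did not pass, and the lists were drawn up with earlier results of these data known.

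In the Notch list (31 tested) 1 gene rose under 20E, 2 rose under JH3 and none fell. These were 3.23% and 6.45% of the list, against 3.34% and 0.927% of all genes tested. The 20E share was thus no higher than that of all genes. Delta (LOC105191219), by its RefSeq name a Notch ligand gene, had 4.45 to 9.64 FPKM in DMSO, 8.33 to 21.6 in 20E and 16 to 38.7 in JH3. It rose under JH3 by log2 1.99 ± 0.20 (limma adjusted p = 1.47e-05, above the DMSO mean in 7 of 7 brains) and had 0.53 ± 0.20 under 20E (adjusted p = 0.276). The RefSeq table names another gene Dl, which had 5.14 FPKM in DMSO and log2 values of -0.02 under 20E and -0.30 under JH3 (adjusted p = 0.999 and 0.642). The ubiquitin ligase gene neur, whose product acts on Delta in the sending cell, rose under JH3 from 30.7 ± 11.3 to 50.6 ± 17.2 FPKM (0.57 ± 0.12, adjusted p = 0.0216, 6 of 7 brains). Its call ended without DMSO replicate 1, 3 or 4 or JH3 replicate 2, and its values over the alternatives ran from 0.51 to 0.71. The metalloprotease gene kuz, whose product cuts Notch, rose under 20E from 30.9 ± 3.9 to 54.4 ± 8.4 FPKM (0.80 ± 0.12, adjusted p = 0.000304, 7 of 7 brains) and was higher than in JH3 (0.50 ± 0.11, adjusted p = 0.00575).

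The receptor gene N had 7.56 ± 3.7 FPKM in DMSO, 10.5 ± 4.23 in 20E and 6.49 ± 2.02 in JH3. It passed only between the hormones (0.64 ± 0.16, adjusted p = 0.0249), and that call ended without any of 20E replicates 1, 2, 3 and 6 or JH3 replicates 1, 4, 5 and 7. CycC, a cyclin gene of the Mediator kinase module, was lower in 20E than in JH3 (-0.69 ± 0.19, adjusted p = 0.0315), a call lost without any of 20E replicates 1 and 3 or JH3 replicates 1, 2, 4, 5 and 7. The genes of the DNA-binding factor Su(H) and its antagonist H did not pass in any comparison. Su(H) had 6.73 ± 0.986, 7.3 ± 1 and 5.81 ± 0.74 FPKM in DMSO, 20E and JH3, and H had 18.5 ± 1.21, 18.1 ± 1.91 and 18.4 ± 1.61. Nor did numb, an inhibitor of Notch (87.3, 84.9 and 93.4 FPKM), or fng, which modifies it with sugar (20.3, 20.2 and 17.8 FPKM). The kinase gene nmo did not pass either.

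Of the HLH genes (16 tested) 2 rose under 20E and 3 under JH3 (12.5% and 18.8%, against 3.34% and 0.927% of all genes). The nearest relative by name, dpn, did not follow Sidpn. It had 3.59 to 6.34 FPKM in DMSO, 2.1 to 6.55 in 20E and 2.22 to 5.18 in JH3 (log2 -0.44 ± 0.19 for JH3 with DMSO, limma adjusted p = 0.519), and the ratio of Sidpn to dpn was 4.81 ± 1.58 in DMSO (SD, n = 5) and 26.6 ± 11.4 in JH3 (n = 7). The clock repressor gene cwo, of the same bHLH-Orange family, went from 12.6 ± 1.92 FPKM in DMSO to 31.7 ± 8.35 in JH3 (1.19 ± 0.13, adjusted p = 2.3e-05, 7 of 7 brains) and had 11.1 ± 2.45 in 20E (-0.27 ± 0.13, adjusted p = 0.544). With it rose crp, a bHLH factor gene, from 14 ± 2.91 to 25.3 ± 4.44 FPKM (0.81 ± 0.14, adjusted p = 0.00367). The growth regulator gene Myc rose under both hormones, from 1.74 ± 0.467 FPKM to 4.18 ± 0.926 in 20E (1 ± 0.15, adjusted p = 0.0004) and 3.7 ± 0.912 in JH3 (0.84 ± 0.15, adjusted p = 0.00537). The clock activator gene cyc rose under 20E alone among the comparisons with DMSO (1.04 ± 0.17, adjusted p = 0.000758), and it and its partner gene Clk were higher in 20E than in JH3 (1.29 ± 0.15 and 0.54 ± 0.13, adjusted p = 1.16e-05 and 0.0134). Among the well expressed HLH genes sima, Mad1 and bigmax did not pass in any comparison.

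In the list of repressors and co-repressors (18 tested) 2 fell under 20E and 1 under JH3. Their shares were 11.1% and 5.56%, against 3.34% and 0.927% of all genes. The co-repressor genes CtBP and Smr did not pass in any comparison. CtBP had 27.9 ± 2.31, 29.1 ± 2.37 and 32.1 ± 2.41 FPKM in DMSO, 20E and JH3, with log2 0.04 ± 0.07 under 20E and 0.18 ± 0.07 under JH3 (limma adjusted p = 0.999 and 0.422). Smr had 27.3 ± 7.5, 36.1 ± 6.16 and 31.6 ± 4.16 FPKM (0.36 ± 0.11 under 20E, adjusted p = 0.119), and the chromatin remodeller gene Mi-2 had 30.5, 32 and 32.8 FPKM. The zinc finger repressor gene ken fell under 20E from 13.6 ± 1.04 to 7.89 ± 1.04 FPKM (-0.76 ± 0.12, adjusted p = 0.000583) and had 17.7 ± 3.63 FPKM in JH3 (0.35 ± 0.12, adjusted p = 0.295). Its signs against DMSO were thus those of klu and emc, and the difference between the hormones was -1.11 ± 0.11 (adjusted p = 1.1e-06). The cofactor gene nab fell under both hormones, with log2 values of -0.42 ± 0.08 under 20E and -0.44 ± 0.08 under JH3 (adjusted p = 0.00458 and 0.00802). The repressor gene cic was lower in 20E than in JH3 (-0.65 ± 0.16, adjusted p = 0.0179). This call was lost with no run term and in each run alone.

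Of the neuroblast factors (16 tested), among which klu is known in flies, 2 rose under 20E and 1 under JH3. That is 12.5% and 6.25%, against 3.34% and 0.927% of all genes. The temporal factor gene chinmo rose under both, from 8.47 ± 2.24 FPKM to 18.4 ± 5.55 in 20E (1 ± 0.14, limma adjusted p = 0.000243) and 14.8 ± 2.33 in JH3 (0.72 ± 0.14, adjusted p = 0.0142). The JH3 call of chinmo ended without DMSO replicate 3 or 4. The polarity gene l(2)gl rose under 20E (0.43 ± 0.10, adjusted p = 0.0231) and was higher in 20E than in JH3 (0.78 ± 0.09, adjusted p = 1.73e-05). The first of these calls was lost when DMSO replicate 1, 3 or 4 or 20E replicate 1 or 3 was left out, and with the replicate number as a block (0.43, adjusted p = 0.062). No comparison passed for dlg1, Eip93F, Syp or stau, the most highly expressed of the others.

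**Figure D5:**
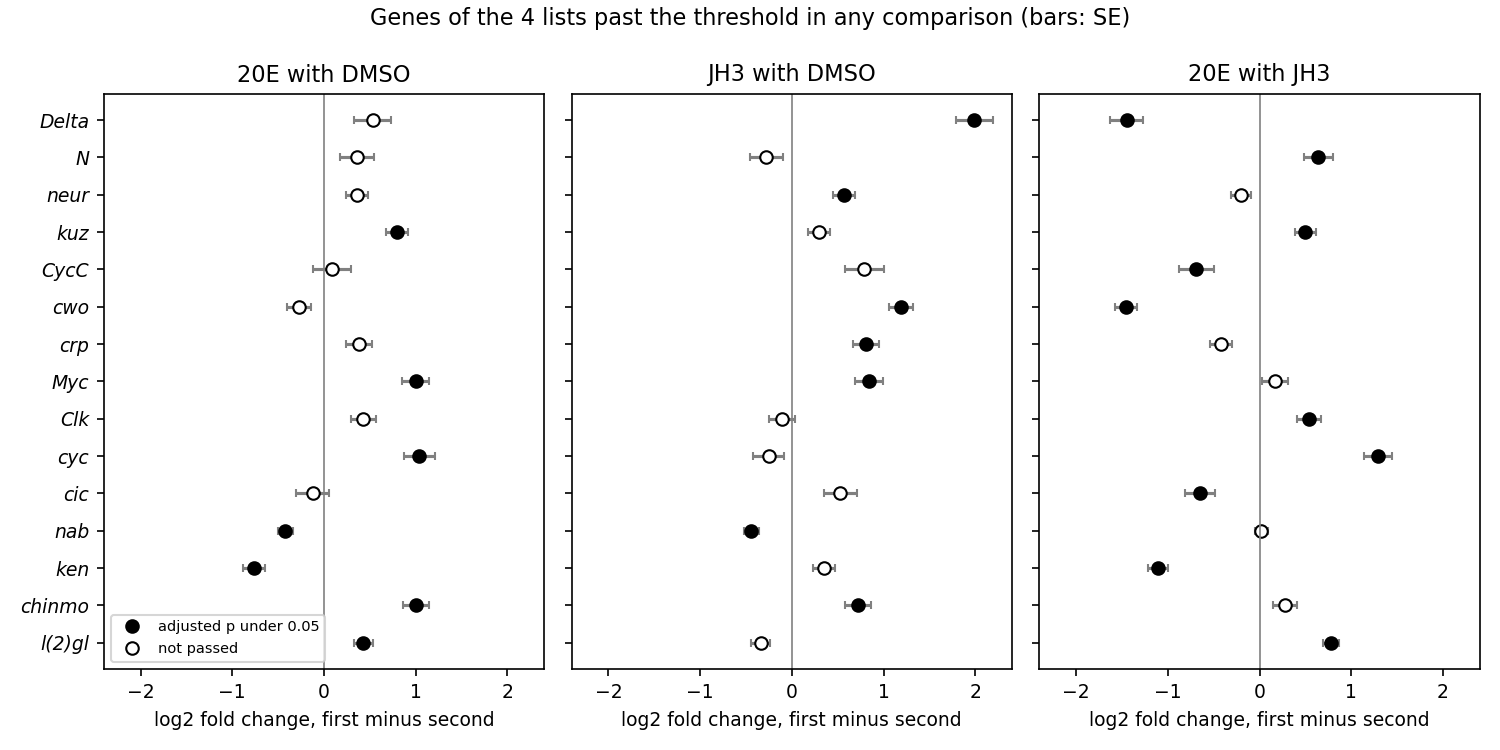
Log2 fold change (horizontal axis, first group minus second, bars SE) of the 15 list genes past the threshold in at least 1 comparison, filled where the adjusted p of limma was under 0.05. Delta and cwo are filled to the right for JH3 with DMSO, and ken and nab to the left for 20E with DMSO.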

How the data were processed

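The authors deposited FPKM values for 14001 genes and 19 libraries. Tools listed in the submitters' processing notes are bcl2fastq, STAR, featureCounts and DESeq2, without versions. Genome build: not given in the sources used here. No coordinates are therefore printed. Per the labels' protocols, polyA RNA from 600 ng of total RNA went into strand-specific libraries. Symbols came from RefSeq (Hsal_v8.6), which matched 13989 gene numbers and left 12 unmatched.

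The FPKM values of each library lay on a grid from which whole reads were read back for all 14001 genes (within 0.02 of a whole number). They give depths and relative gene lengths. The smallest read number behind a value of the 5 genes was 472 (hry in 20E).

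Values were taken as log2(FPKM + 0.5) for the 9381 genes with at least 1 FPKM in at least 5 libraries, so folds of low genes are understated. They were fitted with limma 3.58.1 in R 4.3.3 (group means, run label as a term, trended prior variance), two-sided, with Benjamini-Hochberg adjustment over all genes tested and a threshold of 0.05. The labels do not say whether ants shared a colony, so it is not known whether the brains are independent. The p-values set each difference against the spread between these brains within groups, with the run term in the fit. The script was tested on simulated data. Tables and figures used Python 3.11.15, numpy 2.4.6, pandas 2.3.3 and matplotlib 3.10.9.

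The 5 genes and the lists were chosen with earlier results of these data known. Of the lists' 176 entries 97 matched a symbol; a list entry with 2 candidate symbols, Dl and Delta, was split after the table was seen. List genes named are those past the threshold in any comparison and up to 4 others with the highest levels. Dl, Su(H) and dpn were added for their roles after their values were seen. Likeness names the 3 highest and the lowest r among genes with a symbol. Replicate numbers did not pair the libraries and were not used in the main model.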

Additional observations from a re-analysis of the deposited data

How the results depend on the processing

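Each result was recomputed under up to 32 alternatives. The 15 log2 differences of the 5 genes moved by less than the spread between replicates (1 SD) under each of them. No call among the 24 list gene calls reversed. The bound of 1 SD is wide, since leaving out 1 library can hardly move a group mean that far. Within it, gro for JH3 with DMSO went from 0.32 ± 0.12 (SE) to 0.13 in run 200212 alone. The value of hry for 20E with DMSO, near 0, changed sign. The ranges for JH3 with DMSO were 1.54 to 1.79 for Sidpn, 0.69 to 0.79 for hry, 0.41 to 0.52 for emc, 0.13 to 0.47 for gro and 1.17 to 1.38 for klu. For 20E with DMSO they were 0.04 to 0.31, -0.10 to 0.16, -0.56 to -0.41, 0.29 to 0.62 and -0.77 to -0.57 in that order.

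Counts of calls moved more. For 20E against control, JH3 against control and the direct hormone comparison they were 313, 87 and 501, and, in that order, 193, 49 and 313 with no run term, 114, 13 and 159 in run 190514 alone, 46, 7 and 147 in run 200212 alone, and 551, 180 and 788 with library weights. JH3 with DMSO gave 151 with scaling to total reads, 161 with the gene length trend removed and 134 without 20E replicate 6 and JH3 replicate 1, and 60 to 137 leaving out single libraries (137 without 20E replicate 6). Rises were 77.6% of the calls for 20E with DMSO, 67.4% with scaling to total reads and 66.3% without 20E replicate 6 and JH3 replicate 1. For single libraries left out, the counts were 218 to 353 for 20E with DMSO and 411 to 570 between the hormones. The 4 lists gave 7, 7 and 10 calls, and 3, 1 and 4 in run 190514 alone, 2, 2 and 5 in run 200212 alone, 13 and 16 with library weights (20E with DMSO and 20E with JH3), and for JH3 with DMSO 4 with no run term and 12 with the length trend removed. With no run term the 20E with JH3 calls of cic, Clk and N were lost. So were those of nab, neur and chinmo for JH3 with DMSO and of l(2)gl for 20E with DMSO. Only the calls of cwo, cyc, Delta and ken for 20E with JH3 held under every alternative.

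For the run difference, scaling to total reads gave -0.01 for hry (reversed, not past the threshold) and -0.20 for emc and -0.28 for gro (both past it). With the length trend removed it was 0.17 for Sidpn and 0.19 for klu (no longer past it), 0.10 for emc (reversed, not past it), and 0.30 for hry and -0.44 for gro (now past it). For gro it also passed with library weights (-0.21), without 20E replicate 6 and JH3 replicate 1 (-0.21) and without 20E replicate 6 alone, in a range of -0.22 to -0.14 leaving out single libraries.

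Same-numbered libraries were not alike: their deviations correlated at -0.38 to 0.50 over 17 pairs, 6 of them over 0.1, and 2 of 19 libraries were closest to their own number. With the replicate number as a block the counts were 274, 96 and 531, and 1 of the 24 list gene calls was lost. The cause of these shifts was not tested. Each of the 5 genes had at least 472 reads in every library.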
